A study of Saccharomyces cerevisiae with 5 samples.

Results

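The 32 genes described here encode enzymes of ergosterol and fatty acid synthesis in budding yeast, *Saccharomyces cerevisiae*. They were chosen by name from the annotation of the arrays, and make up 32 of the 5583 genes named there. The annotation carries the elongase genes once known as FEN1 and SUR4 as ELO2 and ELO3. The genes occupy 108 spots, 44 on the first array platform and 64 on the second. On the second platform all 32 genes have a pair of adjacent spots, and on the first 12 genes have 2 spots and the rest 1.

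The study compared RNA that co-precipitated with zzYra1, a tagged form of the nuclear mRNA export adaptor Yra1, with total RNA. On each of 5 spotted 2-channel arrays, cDNA from the immunoprecipitate (IP) was hybridised together with cDNA made from total RNA. Channel 1 held the IP RNA on arrays 1 and 3, and channel 2 held it on the other three. Arrays 1 and 2 share a label set with exchanged channels and were averaged as replicate 1, while arrays 3, 4 and 5 are replicates 2, 3 and 4. Treating arrays 1 and 2 as 1 replicate is an assumption, since the labels do not say that they hold the same extracts. The sources used here give neither strain, growth conditions nor the promoter of the tagged gene, and no mock precipitate was analysed here. Nothing in the labels says that the arrays hold separate cultures, and the p-values therefore reflect array-to-array spread, which may be technical.

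All values below are log2 ratios of the channels with the median spot of each array set to 0. The sources used here do not state which channel is the numerator. "Above" and "below" therefore refer to the deposited ratio against the array median, not to more or less RNA bound by Yra1. If the ratios follow the channels, the values of arrays 2, 4 and 5 have to be turned in sign before they can be set beside those of arrays 1 and 3.

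As background, yeast makes sterols from acetyl-CoA by way of mevalonate, isoprenoid diphosphates and squalene, and HMG-CoA reductase is a main point of control on that route. The later enzymes act largely in the endoplasmic reticulum, need oxygen and haem at several steps, and include the targets of azole, allylamine and morpholine antifungals. Fatty acids come from the same acetyl-CoA through acetyl-CoA carboxylase and fatty acid synthase, and are then desaturated, elongated and activated as CoA esters.

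On single arrays these lipid genes showed no clear shared shift away from the array median, though the intervals were wide. On array 1, 17 of 32 measured genes lay above it (53.1%, exact 95% interval 34.7 to 70.9), where 49.4% of all genes did. On array 2 it was 13 of 26 (50%, against 50.2% of all genes) and on array 3 it was 7 of 15 (46.7%, against 47.6%). Array 4 gave 8 of 18 (44.4%, against 48.7%) and array 5 gave 6 of 9 (66.7%, interval 29.9 to 92.5, against 48.2%). The median of the lipid genes was 0.01, 0.01, -0.06, -0.06 and 0.35 on arrays 1 to 5 in turn, beside medians of -0.01, 0.00, -0.04, -0.03 and -0.10 over all genes. Values more than 1 log2 unit from the array median were found for 8 of 32 genes on array 1 (25%, background 23.3%), 5 of 26 on array 2 (19.2%, background 15.2%), 0 of 15 on array 3 (background 26.6%), 6 of 18 on array 4 (33.3%, background 26.6%) and 5 of 9 on array 5 (55.6%, background 64.5%). Single genes lay far out all the same, namely ERG20, ERG9, ELO3, HMG1, ERG2 and MVD1, and most of these lay far out on some arrays and not on others.

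**Figure D1:**
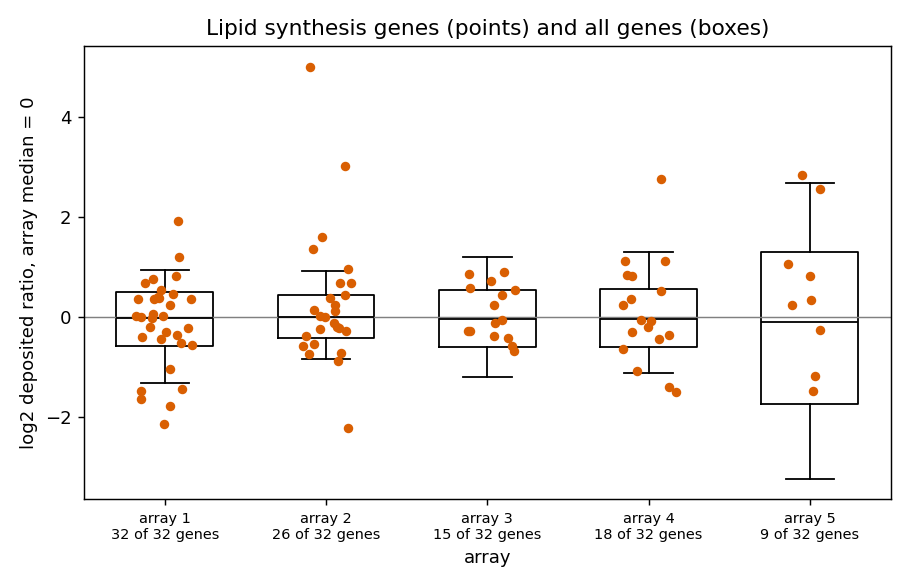
Each point is 1 of the lipid genes on 1 array, as log2 deposited ratio on the vertical axis with the array median at 0. Boxes show the quartiles and whiskers the 10th and 90th percentiles of all genes on that array. The points spread around 0 on each array, with ERG20 at 5.01 on array 2 as the highest.

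Many genes had no value on the second platform. A value was present for 15 of the 32 on array 3 (46.9%), 18 on array 4 (56.2%) and 9 on array 5 (28.1%), against 48.8%, 57.7% and 31.0% of all genes there. On the first platform the shares were 100% on array 1 and 81.2% on array 2, against 99.2% and 68.9%. Only MVD1 and ELO2 had a value in all 4 replicates. There were 12 genes with 3 replicates, 12 with 2, and 6 with replicate 1 alone (ERG12, ERG1, ERG24, ERG6, ERG2 and OLE1). OLE1 encodes the fatty acid desaturase, and its spots on the second platform were empty on all 3 arrays.

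Agreement between spots of the same gene bears on the error within an array, and it differed between the platforms, which also differ in spot distance. Neighbouring spots share any position trend, so their agreement does not cover that part of the error. On arrays 3, 4 and 5, where the paired spots are neighbours, their values correlated across all genes at r = 0.79, 0.86 and 0.92 (1534, 2354 and 1425 genes, which are not independent replicates). With the position trend removed r was 0.73, 0.84 and 0.81. The median difference between the pair was 0.43, 0.34 and 0.41 over all genes and 0.99 (5 genes), 0.44 (12 genes) and 0.16 (9 genes) over the lipid genes. On arrays 1 and 2 the spots of a gene lie far apart, and the correlation was 0.12 over 1098 genes and 0.31 over 429 genes. Values there can rest on which spot is read. ERG27, the 3-keto sterol reductase, had 3.48 and -0.27 in its 2 spots on array 2, and 1.18 and -0.23 on array 1. Its first spot was thus high on both arrays and its second spot near the median on both. HMG2 had -1.86 and -0.20 on array 1. In contrast the ERG2 spots were -2.02 and -2.42 on array 2, although they were 1.37 and 0.14 on array 1.

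**Figure D2:**
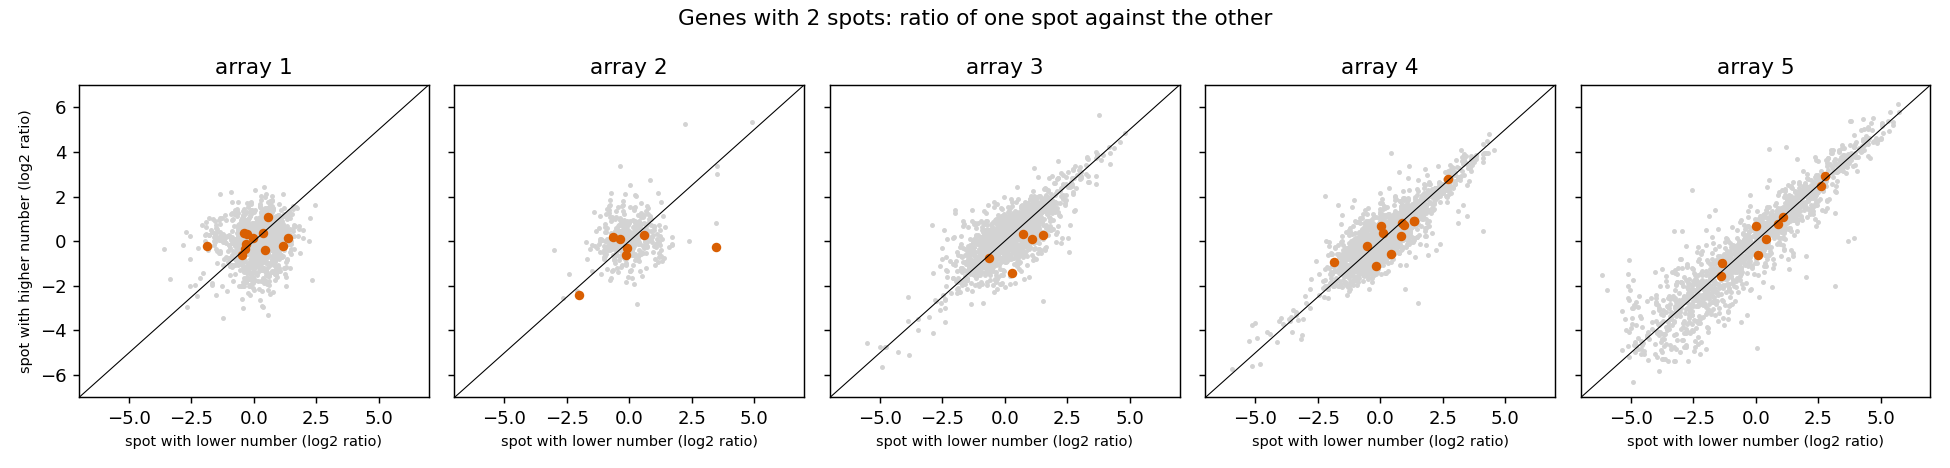
Each panel is 1 array and each point a gene with 2 spots that both have a value, with the log2 ratio of the lower-numbered spot on the horizontal axis and of the higher-numbered spot on the vertical axis. Lipid genes are orange, all other genes grey, and the line marks equal values. Points follow the line on arrays 3 to 5 and form a cloud on arrays 1 and 2, where the ERG27 point at 3.48 and -0.27 stands off to the right.

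The route from acetyl-CoA to farnesyl diphosphate holds 9 of the genes. ERG10, the acetoacetyl-CoA thiolase, had -1.64, 0.24, -0.38 and 1.12 on arrays 1 to 4. ERG13, HMG-CoA synthase, had -0.20, 0.68 and 0.24 on arrays 1, 2 and 4. Both genes lay below the median on arrays with IP RNA in channel 1 and above it on arrays with IP RNA in channel 2, so that their sign followed the channel as deposited. That pattern was lost for both with the position trend removed, where ERG10 had -0.04 on array 2 and ERG13 0.75 on array 1. Turned, the mean of ERG10 over replicates was -0.81 ± 0.39 (SD, n = 3), against 0.02 ± 0.97 as deposited.

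The HMG-CoA reductase isozymes HMG1 and HMG2 were measured together only on arrays 1 and 2, where both lay below the median. HMG1 had -1.43 and -0.74 on arrays 1 and 2, 0.58 on array 3, no value on array 4 and 2.85 on array 5. It was low on both arrays of the first platform and high on both second-platform arrays that measured it. Its adjacent spots gave 2.77 and 2.93 on array 5, so the value there was repeatable between neighbours. It was shared by the spots around it, however: with the running median of 81 spots in file order subtracted, HMG1 had 0.33 on array 5. HMG2 had -1.03, -0.12 and -0.06 on arrays 1, 2 and 4, below the median on all 3, but at 0.08 on array 4 with the position trend removed.

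The next steps are the kinases, the decarboxylase and the isomerase of mevalonate metabolism. MVD1, mevalonate pyrophosphate decarboxylase, was the only gene of the set with a value on all 5 arrays. It had -2.14, 0.69, -0.06, 1.12 and -1.17 on arrays 1 to 5. Its values thus spanned both sides of the median, and arrays with the same channel assignment disagreed (1.12 on array 4 and -1.17 on array 5). IDI1, isopentenyl diphosphate isomerase, had 0.69, -0.21, 0.45 and 0.36 on arrays 1 to 4. Its mean over replicates was 0.35 ± 0.11 (SD, n = 3), among the smaller spreads of the set, but replicate 1 averages the 0.69 and -0.21. With arrays 2, 4 and 5 turned, IDI1 had 0.18 ± 0.47. The phosphomevalonate kinase gene ERG8 had 0.54 on array 1 and 0.87 on array 3, and the mevalonate kinase gene ERG12 had 0.00 on array 1 and -0.53 on array 2.

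ERG20, which makes farnesyl diphosphate for sterols, dolichols and protein prenylation, held the highest single value of the set. It had 1.93 on array 1, 5.01 on array 2 and -0.30 on array 4. On arrays 1 and 2 it stood at percentiles 99.5 and 99.97 of all genes, from the same single spot. On array 4 it stood at percentile 37.3, from 1 of its 2 spots. The first-platform values remained at 1.53 and 4.94 with the position trend removed. Because arrays 1 and 2 have exchanged channels, these values point the same way only as deposited, and with arrays 2, 4 and 5 turned the mean over replicates went from 1.59 ± 2.67 to -0.62 ± 1.30 (SD, n = 2).

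**Figure D3:**
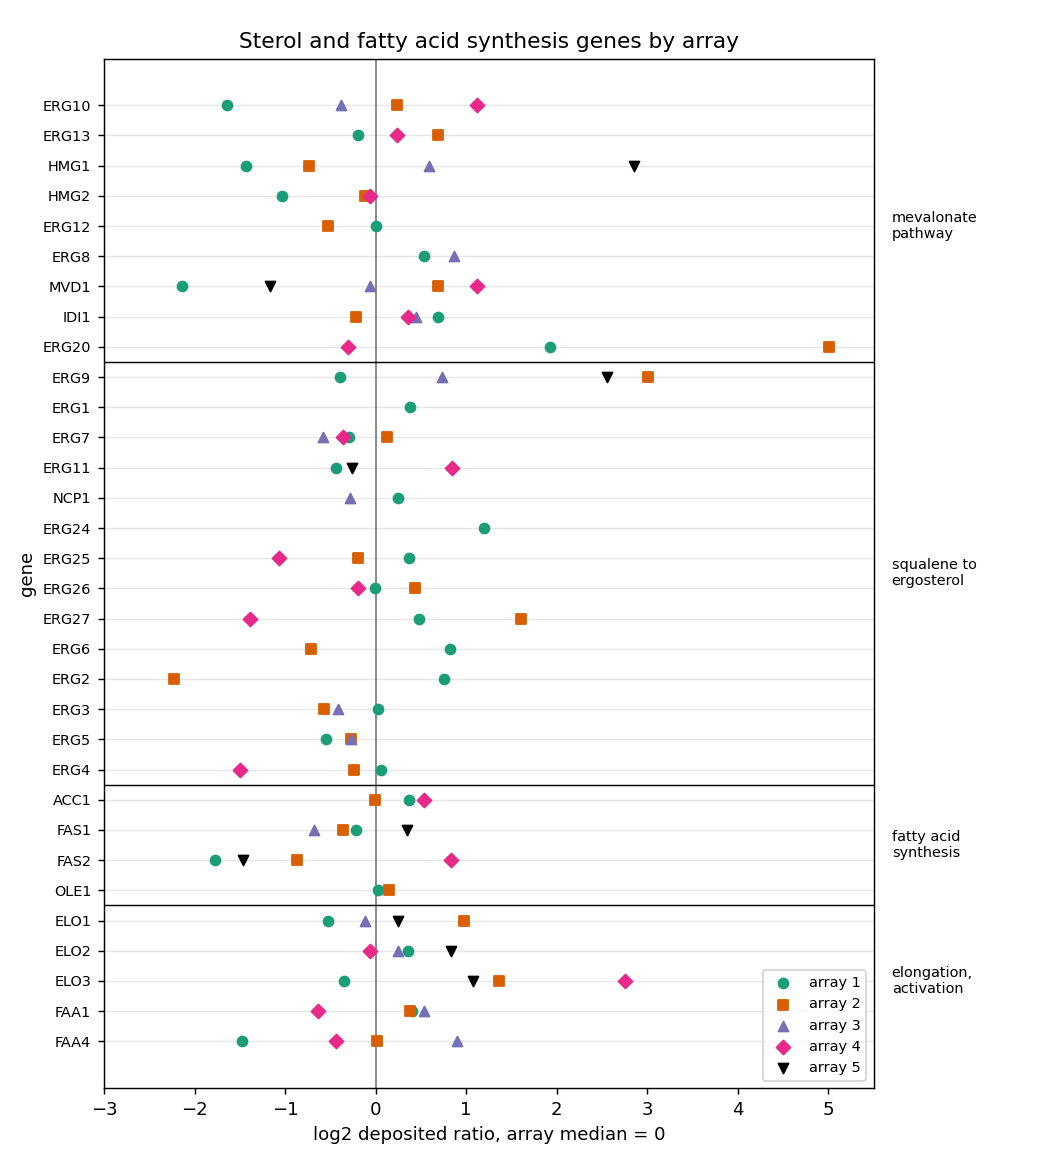
Each row is a gene and each marker its log2 deposited ratio on 1 array, with the array median at 0 and genes grouped by role in pathway order. Most rows have markers on both sides of 0, and the largest values are ERG20 at 5.01 and ERG9 at 3.01 on array 2.

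From squalene to ergosterol, 14 genes were measured on at least 1 array. ERG9, squalene synthase, commits farnesyl diphosphate to sterols. It had -0.40, 3.01, 0.73 and 2.55 on arrays 1, 2, 3 and 5. It was below the median on array 1 and above it on the 3 others, at percentiles 99.3 on array 2 and 89.3 on array 5. The adjacent spots on array 5 gave 2.62 and 2.49, and without the position trend the array values were 0.00, 3.08, 0.42 and 2.31.

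The early sterol enzymes stayed closer to the median. ERG1, squalene epoxidase and the allylamine target, had 0.38 on array 1 and no other value. ERG7, lanosterol synthase, had -0.30, 0.13, -0.58 and -0.36 on arrays 1 to 4, with spots of 0.28 and -1.44 behind the array 3 value. ERG11, the lanosterol demethylase that azoles inhibit, had -0.44 on array 1, 0.85 on array 4 and -0.26 on array 5. Its mean was 0.05 ± 0.70 (SD, n = 3), and no side was shared by its arrays. NCP1, the reductase that passes electrons to the P450 enzymes ERG11 and ERG5, had 0.25 on array 1 and -0.28 on array 3. ERG24, the C-14 reductase, had 1.20 on array 1 alone.

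The C-4 demethylation enzymes ERG25, ERG26 and ERG27 act as a complex. On array 4 they had -1.07, -0.19 and -1.39, all below the median. On array 1 they had 0.37, -0.01 and 0.47, and on array 2 -0.20, 0.44 and 1.61, where the value of ERG27 is the mean of the discordant spots given above. ERG4, which carries out the last reduction to ergosterol, was also low on array 4 at -1.49, with 0.06 and -0.23 on arrays 1 and 2. Of the 6 sterol genes measured on array 4, 5 lay below the median, ERG11 being the exception, and their median was -0.71. Of the 6 mevalonate genes measured there, 4 lay above it (48.7% of all genes did), with a median of 0.30. The array 4 values of ERG25, ERG26, ERG4, HMG2 and ERG20 each rest on 1 of 2 spots. Array 1, which measured all genes of both groups, showed the opposite order as deposited. There 9 of 14 sterol genes (group median 0.15) and 4 of 9 mevalonate genes (group median -0.20) lay above the median, against 49.4% of all genes. Arrays 2 and 3 had the order of array 4, with sterol medians of -0.22 and -0.28 and mevalonate medians of 0.06 and 0.45. On array 5, with 2 genes in each group, the medians were 1.15 and 0.84. If the ratios follow the channels, the order turns on arrays 2, 4 and 5. Arrays 2 and 4 then have the order of array 1, and arrays 3 and 5 do not. The role groups were formed from pathway knowledge and their difference was not tested.

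The side-chain and ring enzymes of the late pathway were measured mainly on the first platform. ERG6, the sterol methyltransferase, had 0.83 and -0.71 on arrays 1 and 2, and ERG2, the C-8 isomerase, had 0.76 and -2.22. Both were above the median on array 1 and below it on array 2. ERG3, the C-5 desaturase, had 0.03, -0.57 and -0.41 on arrays 1 to 3. ERG5, the C-22 desaturase, had -0.55, -0.28 and -0.27 on the same arrays and was the only sterol gene below the median on every one of at least 3 arrays.

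The enzymes that build and desaturate fatty acids are encoded by 4 of the genes. ACC1, acetyl-CoA carboxylase, had 0.36, 0.00 and 0.53 on arrays 1, 2 and 4. FAS1 and FAS2 encode the subunits of one enzyme, and their ratios were compared on the arrays that measured both. FAS1 had -0.22, -0.36 and 0.35 on arrays 1, 2 and 5, where FAS2 had -1.77, -0.87 and -1.47. As deposited FAS2 was the lower of the pair on all 3 arrays, and with the channel 2 arrays turned on 1 of the 3. FAS1 also had -0.68 on array 3 and FAS2 0.83 on array 4. The paired spots of FAS2 on array 5 were -1.39 and -1.55 and those of FAS1 0.02 and 0.68. Position bore on these values: with its trend removed, FAS2 had -0.54 on array 1 and -0.13 on array 5, and FAS1 had 2.44 on array 5. OLE1 had 0.02 and 0.14 on arrays 1 and 2.

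Among the elongases, ELO3 held the largest values. ELO3, which makes the very long chains of sphingolipids, had -0.35, 1.36, 2.75 and 1.07 on arrays 1, 2, 4 and 5. It was above the median on all 3 arrays with IP RNA in channel 2 and below it on array 1, the only array with IP RNA in channel 1 that measured it. Its adjacent spots gave 2.70 and 2.81 on array 4 and 1.08 and 1.06 on array 5. The value on array 4 was at percentile 97.5 of all genes, and on array 5 at 71.4. Without the position trend the 4 array values were -0.77, 1.39, 2.47 and 1.08.

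ELO1, which extends medium-chain acids, had -0.52, 0.97, -0.11 and 0.25 on arrays 1, 2, 3 and 5. Like ELO3 it lay below the median where the IP RNA was in channel 1 and above it where it was in channel 2, at smaller values. With the position trend removed ELO1 had -0.09 on array 5, and the pattern was lost. ELO2, which acts on long chains, had 0.36, 0.25, -0.07 and 0.83 on arrays 1, 3, 4 and 5. Without the position trend these became 0.04, -0.07, 0.19 and -0.01. FAA1 and FAA4 encode the main acyl-CoA synthetases for imported fatty acids. FAA1 had 0.41, 0.38, 0.54 and -0.64 on arrays 1 to 4, and FAA4 had -1.47, 0.02, 0.90 and -0.44. The pair lay on opposite sides of the median on array 1 and on the same side on arrays 2, 3 and 4. With the position trend removed FAA1 had 0.45 and FAA4 -0.08 on array 1. Related gene copies can share signal on spotted cDNA arrays, and cross-hybridisation between HMG1 and HMG2, among the elongases or between FAA1 and FAA4 was not tested.

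Neither of the genes measured in all 4 replicates passed the test against 0. With limma and Benjamini-Hochberg adjustment over 703 genes, ELO2 had a mean of 0.34 ± 0.37 (SD, n = 4 replicates, 95% interval -0.84 to 1.53, adjusted p = 0.795) with 3 of 4 replicates above 0. MVD1 had -0.21 ± 0.99 (95% interval -1.54 to 1.12, adjusted p = 0.894) with 1 of 4 above 0. Neither gene was above 0 in all 4 replicates (background 9.53%) or below 0 in all 4 (background 5.55%). At the adjusted threshold of 0.05 the background was 0% of the 703 genes, and at an unadjusted p under 0.05 it was 55 genes or 7.82%, with 0 of the 2 lipid genes among them. The intervals of both genes reach past 1 log2 unit above 0, and only that of MVD1 also reaches past 1 below 0. Means of those sizes were not excluded. Both means also shrank with the position trend removed, ELO2 to 0.04 and MVD1 to -0.01. The mean of MVD1 was 0.11 without replicate 4 and -0.65 without replicate 3, and that of ELO2 was 0.18 without replicate 4.

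Fitting all 2422 genes with at least 3 replicates brought 14 of the lipid genes into the test, again with 0 past the adjusted threshold (background 0%). Of the 14, 2 had an unadjusted p under 0.05, or 14.3%, where the background was 4.91%. These were ERG9 with a mean of 1.53 ± 0.93 (SD, n = 3, adjusted p = 0.797 in limma) and ELO3 with 1.44 ± 1.17 (SD, n = 3, adjusted p = 0.797 in limma). The same genes were the 2 of 14 under that limit with the position trend removed (background 5.12%), with means of 1.42 and 1.29. Both lay above 0 in 3 of 3 replicates, as did IDI1, making 3 of 14 (background 10.9%), and ERG7 was the 1 gene of 14 below 0 in all (background 12.4%). For all 4 of these genes replicate 1 is the mean of arrays on opposite sides of the median. Arrays 1 and 2 had -0.40 and 3.01 for ERG9, -0.35 and 1.36 for ELO3, 0.69 and -0.21 for IDI1, and -0.30 and 0.13 for ERG7. Of the 14 means 9 lay above 0 (64.3%, against 46.8% of all genes in that fit). The median over the 14 means was 0.07, beside -0.05 over all 2422 genes. At least 2 replicates were available for 26 of the lipid genes, and 0 of these passed among 4483 genes (background 0%), with 2 at an unadjusted p under 0.05 (7.69%, background 3.79%).

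How the ratios run decided the sign of several genes. With arrays 2, 4 and 5 turned, ELO3 had -1.56 ± 1.04 (SD, n = 3, adjusted p = 0.930 in limma) and ERG9 -1.18 ± 1.70 (SD, n = 3, adjusted p = 0.930 in limma). ELO3 was then on the same side in 3 of 3 replicates and 4 of 4 arrays, while ERG9 was not (0.73 on array 3). The median of the 14 genes went to -0.33, beside -0.02 over all genes, and 4 of the 14 means lay above 0 (28.6%, against 49.0%). In limma 1 of 14, ELO3, had an unadjusted p under 0.05 (background 2.81%), with 0 past the adjusted threshold. HMG1 went from 0.78 ± 1.97 to -0.87 ± 1.78. FAA1 went from 0.10 ± 0.64 to 0.40 ± 0.34, then with 3 of 3 replicates above 0. It was the 1 gene of 14 above 0 in all, where 228 of 2422 of all genes were. Its replicate 1 then averages arrays 1 and 2 on opposite sides of the median, at 0.41 and 0.38 before turning.

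**Figure D4:**
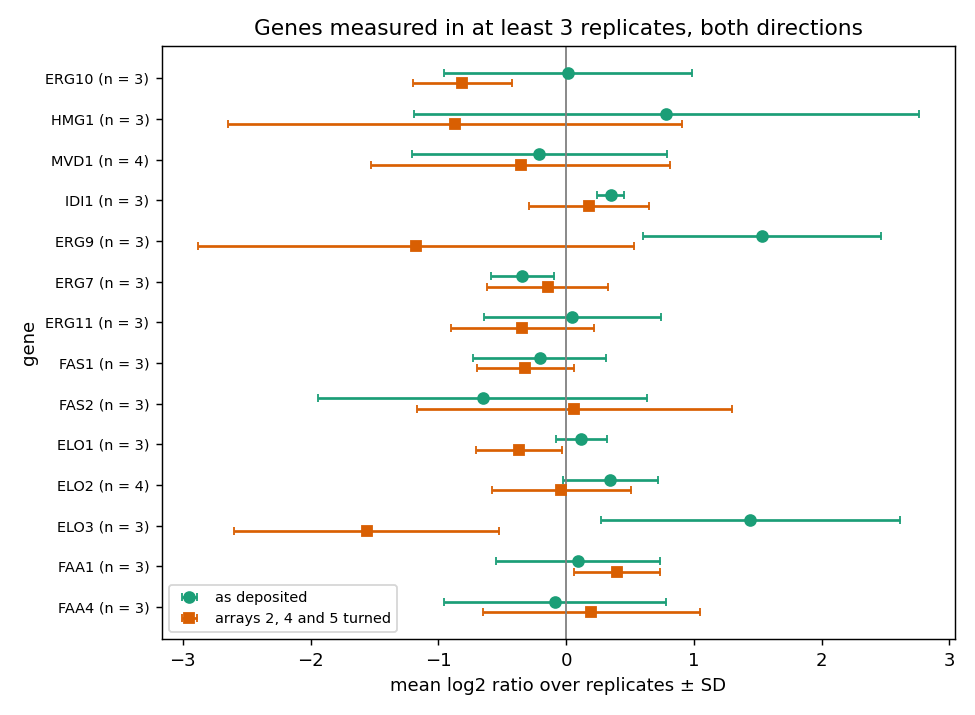
Points are means of the log2 ratio over replicates for the 14 genes measured in at least 3, with bars of ± 1 SD and n beside each name. Circles are the ratios as deposited and squares those with arrays 2, 4 and 5 turned. ELO3 moves from 1.44 to -1.56 and ERG9 from 1.53 to -1.18, while the means of the 12 other genes lie within 1 log2 unit of 0 either way.

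Over single arrays, 24 of the lipid genes had a value on at least 3. As deposited, 0 of the 24 lay above the median on every array measured (background 7.99%) and 2, HMG2 and ERG5, lay below it on every one (8.33%, background 10.5%). With arrays 2, 4 and 5 turned, ERG4 and ERG25 were above on every array (8.33%, background 8.25%), and ERG10, ERG13, ELO1 and ELO3 were below (16.7%, background 8.73%). These shares cover few genes each. Between arrays 1 and 2, which have exchanged channels, 9 of 26 lipid genes had the same sign (34.6%, against 50.2% of all genes), and their values correlated at r = 0.27, a figure that holds the ERG20 point. For all 3814 genes measured on both arrays, as deposited, r was 0.01. Across the 10 pairs of arrays the r over all genes ran from -0.04 to 0.23. The share of lipid genes with the same sign ran from 20% between arrays 4 and 5 (1 of 5, against 51.5% of all genes) to 66.7%. The latter was reached between arrays 1 and 3 (10 of 15, against 48.8%) and between arrays 3 and 5 (4 of 6, against 58.0%).

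Spot position, taken as order in the deposited table, moved the values of this set most on arrays 1 and 5. Subtracting the running median shifted the lipid genes by a median of 0.36, 0.06, 0.30, 0.18 and 0.34 on arrays 1 to 5 in turn, beside 0.27, 0.08, 0.22, 0.23 and 1.33 for all genes. The 6 lowest lipid genes on array 1 all moved up with it. MVD1 went from -2.14 to -1.43, FAS2 from -1.77 to -0.54, ERG10 from -1.64 to -0.69, FAA4 from -1.47 to -0.08, HMG1 from -1.43 to -0.51 and HMG2 from -1.03 to -0.73. The sign changed for 4, 2, 2, 3 and 2 lipid genes on arrays 1 to 5.

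**Figure D5:**
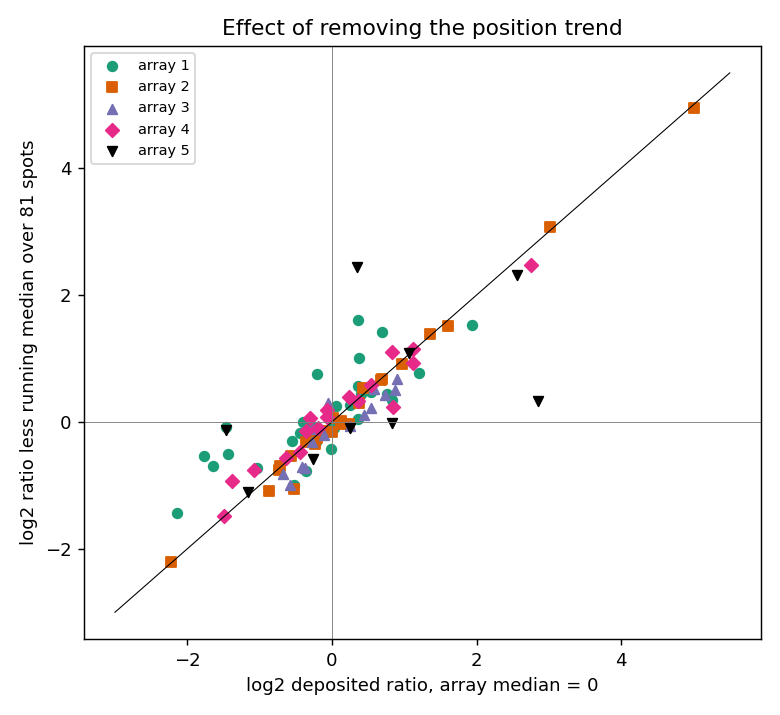
Each point is a lipid gene on 1 array, with its log2 deposited ratio (array median at 0) on the horizontal axis and the value after subtraction of the running median over 81 spots on the vertical axis. The line marks no change. The 6 lowest values of array 1 lie above the line, and HMG1 on array 5 falls from 2.85 to 0.33.

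A wider list of 61 lipid genes took in regulators of sterol and phospholipid genes, sterol helpers, prenyl branches, acyl chain, phospholipid and sphingolipid enzymes. Of these, 8 were measured in all 4 replicates, and 0 passed the test (background 0%), with 0 at an unadjusted p under 0.05 (background 7.82%). The median of the 8 means was 0.01, beside 0.04 over the 703 genes, and 5 of the 8 were above 0 (62.5%, against 51.8%). HAP1, a haem-responsive activator of sterol and respiratory genes, was the highest as deposited with 1.39 ± 1.68 (SD, n = 4, adjusted p = 0.622 in limma). It had -2.08, 0.80, 2.43, 3.06 and 0.73 on arrays 1 to 5, low on array 1 and above the median on the others. HES1, an oxysterol-binding protein gene, was the lowest as deposited with -1.28 ± 1.27 (n = 4, adjusted p = 0.622 in limma), and its array values were -0.10, -0.26, -0.29, -1.88 and -2.79, all below the median. PIS1, phosphatidylinositol synthase, outside the naming rule and picked after its values were seen, was above the median on all 5 arrays (0.41, 0.47, 0.25, 0.33 and 1.90). Turning arrays 2, 4 and 5 reversed all 3 of these, to -0.70 ± 2.30 for HAP1, 1.11 ± 1.46 for HES1 and -0.50 ± 0.96 for PIS1 (SD, n = 4), and made HAP1 the lowest of the 8. With at least 3 replicates, 29 of the 61 entered, of which 1 had an unadjusted p under 0.05 (3.45%, background 4.91%). Of these 29 means 10 lay above 0 (34.5%, against 46.8% of all genes in that fit), with a median of -0.15, and with at least 2 replicates 19 of 51 did (37.3%, against 45.1%).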

How the data were processed

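Per the labels, each array compared cDNA from zzYra1 co-precipitated RNA with cDNA from total RNA. The authors deposited log10 channel ratios, with no processing step stated. Base 10 was inferred: with it, 30.9% (array 3) to 94.2% (array 2) of values were the log of a fraction with a denominator up to 3000, against at most 1.34% with base 2 or e. Column medians of -1.39, 1.34, -0.853, 0.302 and -0.141 show unbalanced channels. Scale and centring were set here, and the direction stays unknown. Values are present for 7591, 4931, 4884, 6143 and 3722 spots, and the number of arrays limits the precision.

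Ratios were converted to log2 and centred on each array's median, and spots of a gene were averaged. GEO's platform annotation, which can be old, gave 1 gene for 6695 of 7680 and 11138 of 12800 spots, several for 0, and none for 985 and 1662. Gene identifiers matched RefSeq assembly R64 for 5578 of 5583 and 5534 of 5539 genes, and symbols follow it. Genes measured in all 4 replicates were compared with 0 in limma 3.58.1 (lmFit, eBayes; R 4.3.3), adjusted by Benjamini-Hochberg over all genes fitted. The fit was tested on simulated data with independent noise and changes larger than any mean given here. That test does not bear on the power to find smaller changes. Each ratio is formed within 1 array, so both tables entered 1 fit. Python 3.11.15, numpy 2.4.6, pandas 2.3.3 and scipy 1.17.1 did the rest. Exact (Clopper-Pearson) intervals cover counting error only and take genes as independent.

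Every lipid gene is named, with the highest and lowest tested gene of the wider list. Genes and lists were chosen with earlier results of these data known. Alternatives changed direction, replicate unit, scaling, centring, missing-value filter, spread model, spot averaging, position and the arrays used.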

Additional observations from a re-analysis of the deposited data

Results flagged for a closer look

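By Dixon's test at 95%, 2 of 17 sets of array or replicate values held a value apart from the rest, where chance flags about 1 in 20 (0.85 of 17). The sets overlap, and ELO2 entered over replicates and again over arrays with the same values, so the figure for chance is only a guide. FAA1 had -0.64 on array 4, below its values of 0.41, 0.38 and 0.54 on arrays 1 to 3. The median of the lipid genes on array 5 was 0.35, above those of the other 4 arrays, and rested on 9 genes. With the position trend removed it was -0.01. Array 5 had the widest spread (SD of single spots 2.30, against 0.848 to 1.15 on the others), and the part of this in the median was not tested. FAA1 had no value on array 5.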

How the results depend on the processing

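The number of tested lipid genes past the threshold was 0 in all 17 alternatives, with 2 to 26 genes tested. Among all genes the share past it was also 0% in the main fit and in the fits with at least 3 or at least 2 replicates. It was 0% too with arrays turned or the position trend removed among genes with at least 3 replicates. For the other alternatives that share was not worked out here. The median over tested genes was 0.07 in the main fit, where it rests on 2 genes. It moved by less than the spread of 0.33 between replicates, taken from the same 2 genes, in 16 of 17 alternatives. These alternatives are not independent. Spot averaging and the spread model could not change the median, and the second platform alone used the same arrays as the fit without replicate 1. The exception, chosen after seeing the data, was -0.33 with arrays 2, 4 and 5 turned among genes with at least 3 replicates. Leaving out a replicate gave -0.08 to 0.15. ELO2 changed sign to -0.039 with those arrays turned, with either filter on missing values, and otherwise kept its sign (0.18 to 0.48 without a replicate). MVD1 changed sign to 0.21 on arrays 2, 4 and 5 alone and to 0.11 without replicate 4 (range -0.65 to 0.11 over the replicates left out). The cause was not tested. ELO2 had no value on array 2, so no result for arrays 2, 4 and 5 alone. The shares of genes above the array median stayed inside their intervals under 3 alternatives. Those intervals are wide (29.9 to 92.5 on array 5), so staying inside them says little. The median of spots, among the 3, could not change a share, since no lipid gene has more than 2 spots on an array. With the position trend removed array 5 had 44.4% in place of 66.7%, and array 4 had 61.1% in place of 44.4%. A random block for arrays 1 and 2 was not run, since limma gave no correlation for a single pair. No paired analysis was possible because all arrays form 1 group. Signal over background was not used here, so its limits on dim spots are unknown.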
